A study of Mus musculus with 8 samples.

Results

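Cell cycle and DNA replication genes were measured by RNA-seq in livers of db/db mice, which lack a working leptin receptor and become obese and diabetic. The 40 genes were chosen by symbol, and all 40 were found among the 41388 Ensembl features of the count tables. They comprise 2 D-type cyclins, 4 cyclins and E2F factors of the G1/S transition, 8 origin licensing genes, 6 genes of DNA synthesis and nucleotide supply, 8 genes of mitotic entry, and 12 genes of chromosomes, spindle and division. Mice were littermates labelled C57B/6J, randomised at 5 weeks of age and 10 weeks old at sampling. Each received adenovirus through the tail vein, encoding GFP in 4 mice (AdGFP) and NAMPT, the rate-limiting enzyme of NAD salvage, in the other 4 (AdNAMPT). All 8 mice were thus db/db and carried adenovirus. The genotype label reads control for AdGFP and overexpression of NAMPT for AdNAMPT, and the db/db background comes from the titles. The series design text gives 4 to 5 weeks of overexpression, while the study's methods describe a shorter optimised interval for adenovirus and its legend for adipose tissue of such mice an interval of days, so the time between delivery and sampling is uncertain.

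A dividing cell passes from D-type cyclins, which answer to growth signals, to cyclin E and the E2F factors, which switch on the genes for DNA replication. The Mcm2 to Mcm7 proteins form the ring-shaped helicase that Cdc6 and Cdt1 load onto origins, Pcna clamps the polymerase to DNA, and ribonucleotide reductase, thymidylate synthase and thymidine kinase supply nucleotides. Cyclin B with Cdk1 then drives mitosis, and motors, checkpoint kinases and chromosomal proteins separate the chromosomes. Adult hepatocytes are mostly quiescent but can return to the cycle after injury, so these transcripts are usually scarce in liver.

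Libraries held 12006713 to 19879814 counts, so 3 counts corresponded to 0.151 to 0.250 CPM (reads of a gene scaled to the total counted reads of its library). Hepatocyte markers were high in every library, with albumin between 76695 and 99419 CPM. Nampt, the gene carried by the vector, spanned 102.3 to 177.8 CPM with overlapping groups, and its log2 fold change of 0.08 did not pass limma's test (adjusted p = 0.915), so the transcript did not mark the AdNAMPT label. AdNAMPT replicate 4 stood apart: Xist, the RNA of the inactive X chromosome, was at 21.3 CPM in it and at 0 to 0.50 CPM in the other 7 libraries, while the Y-linked Ddx3y was between 97.1 and 136.1 CPM in all 8. AdNAMPT replicate 1 was the smallest library and had the lowest limma sample weight, 0.440. Results are therefore given with and without these livers.

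Levels were low throughout. Per length, the mean over the 8 livers ran from 0.0606 RPKM (CPM per kilobase of exon) for Cdc6 to 6.71 RPKM for Pcna, with a median of 0.648 RPKM. Pcna, Tk1 (thymidine kinase, 3.59 RPKM) and Rrm1 (large subunit of ribonucleotide reductase, 3.55 RPKM) were the most abundant per length. The study's filter, above 1 CPM in at least 3 libraries, kept 31 of the 40 genes. The 9 below it were Cdc6, Ccnb1, Cdc25c, Foxm1, Plk1, Bub1, Aurkb, Cenpe and Stmn1, each with 0 to 35 reads in any library. They were estimated in a wider fit of 17099 features with at least 10 reads in all.

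No cell cycle or replication gene differed between AdNAMPT and AdGFP at an adjusted p of at most 0.05 (limma, Benjamini-Hochberg over 12270 genes). Adjusted p ran from 0.408 to 0.999. Across all genes 0.277% passed that threshold. At an unadjusted p under 0.05, 3 of the 31 genes were lower in AdNAMPT (Ccne2, Mcm4 and Mcm6), against 5.04% of all genes, and 0 were higher, against 4.65% of all genes. Counted in either direction, that was 9.68% of the 31 genes beside 9.69% of all genes. edgeR's quasi-likelihood test and DESeq2 also called 0 of these genes, with 2 genes each at an unadjusted p under 0.05, Ccne2 and Mcm4. Over all 12270 genes, 982 with edgeR and 840 with DESeq2 were under that p in either direction. The wider fit called 0 of the 40 genes, against 0.187% of its features. Of the 31 genes, 26 had a log2 fold change (AdNAMPT over AdGFP) below 0, with a median of -0.19 beside 0.00 over all genes. That median was not stable: it was -0.07 with edgeR, where 20 genes lay below 0, and -0.04 with replicate number as a block, where 20 also did. It was -0.11 without AdGFP replicate 4, and -0.07, 0.04, -0.40 and -0.54 without AdNAMPT replicates 1, 2, 3 and 4. Without AdNAMPT replicate 3, 6 genes had an unadjusted limma p under 0.05, of which 5 were lower and 1, Cdk1, was higher. Over all genes 1508 of 12430 were under that p in either direction. In whole liver, fewer dividing cells and less RNA per cell cannot be told apart.

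The clearest feature of these genes was a difference between individual livers. AdNAMPT replicate 4 held the highest level of all 8 livers for 26 of the 40 genes and for 19 of the 31 above the filter (61.3%, after TMM scaling), against 12.5% of all genes. AdNAMPT replicate 1 or 2 held the lowest level for 22 of the 31 (71.0%), against 31.4% of all genes. Over the 40 genes, replicate 1 was the lowest liver for 20 and replicate 2 for 6. Within AdNAMPT alone, replicate 4 was highest for 27 of 31 genes (87.1%), where it was highest for 24.7% of all genes. Within AdGFP alone, replicate 4 was highest for 26 of 31 genes (83.9%), where it was highest for 23.2% of all genes. So both groups had 1 liver with high levels of most of these genes. The lowest levels were more often in AdNAMPT replicate 1 than in AdNAMPT replicate 2. The log2 spread was wider in AdNAMPT than in AdGFP for 25 of the 31 genes (80.6%), against 59.9% of all genes. Its median SD was 0.233 in AdGFP and 0.486 in AdNAMPT for these genes, beside 0.146 and 0.172 for all genes. The genes share the same livers and are not independent of each other, and these counts by liver were chosen after the values were seen.

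**Figure D1:**
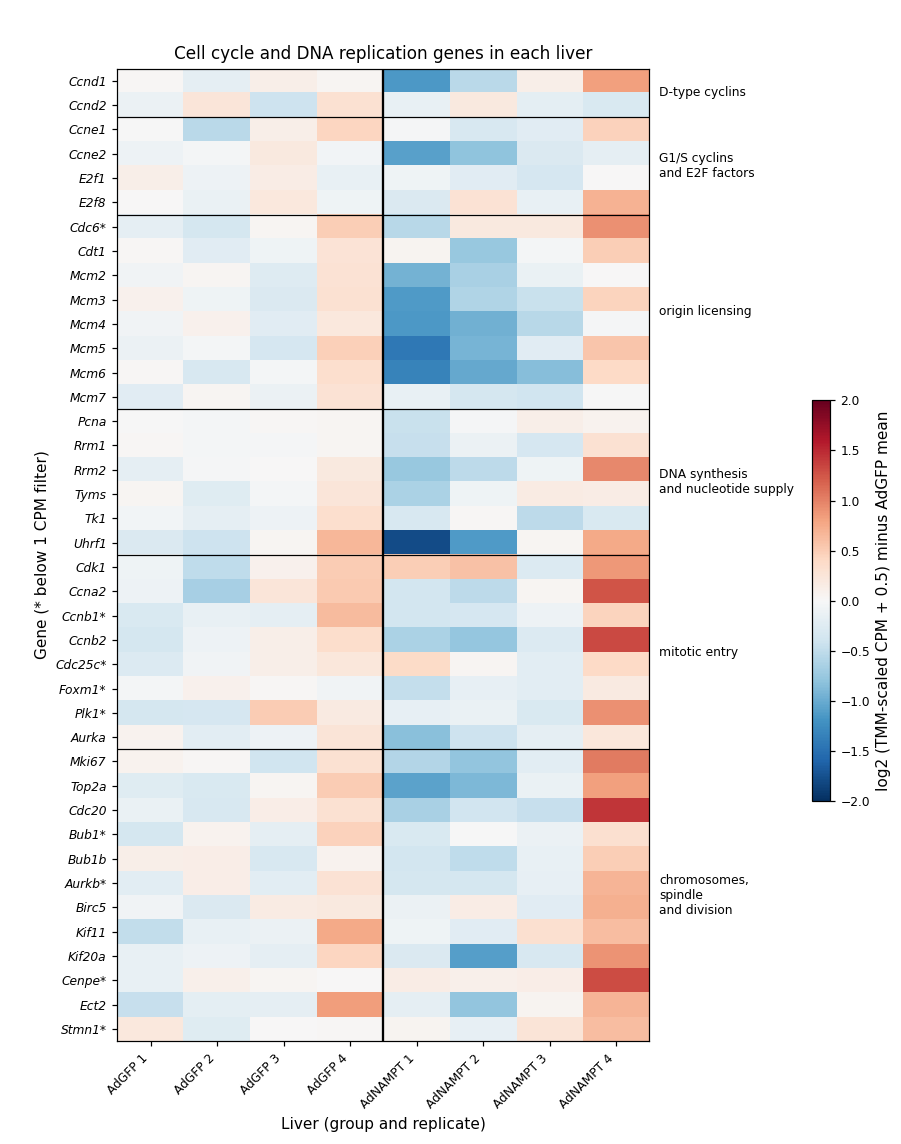
Log2 level of each of the 40 genes (rows, grouped by role) in each of the 8 livers (columns), after TMM scaling with 0.5 CPM added, minus the AdGFP mean of that gene. Red is above and blue below that mean. The AdNAMPT 4 column is red for most genes, the AdNAMPT 1 and 2 columns are blue across most licensing genes, and AdGFP 4 is the reddest of the AdGFP columns.

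Promoters were read for the genes in 30 of 40 cases (RefSeq, GRCm38.p6, 250 bases before to 50 after the start), since genes of replication and genes of mitosis are known to be switched by different elements. A gene with several windows was counted once, if any held the letters. Those of Ccnd1, Ccnd2, Ccne2, Mcm4, Ccna2, Cdc25c, Foxm1, Aurkb, Kif20a and Stmn1 were not used here. The E2F factors bind sites rich in G and C after a run of T, and the MuvB complexes bind the CHR element, often with a CCAAT box upstream. The letters searched on both strands were TTTGAA (CHR), CCAAT, and for E2F the 4 forms TTTGGCGC, TTTCCCGC, TTTCGCGC and TTTGCCGC. An E2F form stood in 6 of 7 licensing promoters (Cdc6, Cdt1, Mcm3, Mcm5, Mcm6 and Mcm7), in Uhrf1 and in Cdk1, against 2.60% of the 27025 genes with a promoter. The CHR letters stood in 4 of 5 promoters of mitotic entry genes and 6 of 9 of chromosome and spindle genes, in 1 of 7 licensing and 0 of 6 synthesis promoters, against 20.2% of all genes. CCAAT stood in 23 of the 30, against 41.1% of all genes. The promoters below belong to the genes described in full whose window held a CHR or E2F match, shown with every match in capitals so that the elements of replication and mitotic genes can be compared.
Mcm2, chr6:88898731-88899030, minus strand: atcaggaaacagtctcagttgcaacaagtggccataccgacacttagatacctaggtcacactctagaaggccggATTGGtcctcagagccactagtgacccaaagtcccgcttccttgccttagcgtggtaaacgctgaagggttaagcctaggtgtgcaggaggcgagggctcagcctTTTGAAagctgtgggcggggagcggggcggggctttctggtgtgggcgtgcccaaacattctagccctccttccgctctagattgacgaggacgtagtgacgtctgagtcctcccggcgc
Mcm6, chr1:128359656-128359955, minus strand: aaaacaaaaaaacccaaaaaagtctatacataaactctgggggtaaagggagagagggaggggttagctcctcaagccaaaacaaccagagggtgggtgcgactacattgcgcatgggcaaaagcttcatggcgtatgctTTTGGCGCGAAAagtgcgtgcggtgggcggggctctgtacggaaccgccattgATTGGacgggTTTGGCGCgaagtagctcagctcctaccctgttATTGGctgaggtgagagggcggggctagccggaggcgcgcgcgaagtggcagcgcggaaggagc
Cdk1, chr10:69352863-69353162, minus strand: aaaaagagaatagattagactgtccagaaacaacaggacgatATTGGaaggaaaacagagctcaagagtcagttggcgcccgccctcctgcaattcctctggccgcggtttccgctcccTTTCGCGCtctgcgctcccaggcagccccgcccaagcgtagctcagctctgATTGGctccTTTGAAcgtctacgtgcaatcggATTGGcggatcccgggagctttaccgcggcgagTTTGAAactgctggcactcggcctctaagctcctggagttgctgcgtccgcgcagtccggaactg
Mki67, chr7:135716330-135716629, minus strand: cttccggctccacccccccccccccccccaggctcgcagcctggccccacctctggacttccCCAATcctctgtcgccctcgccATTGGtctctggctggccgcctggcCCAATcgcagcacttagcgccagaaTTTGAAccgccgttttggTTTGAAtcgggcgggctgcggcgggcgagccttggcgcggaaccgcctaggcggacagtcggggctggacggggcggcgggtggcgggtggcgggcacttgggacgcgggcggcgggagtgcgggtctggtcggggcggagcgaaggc
Top2a, chr11:99024140-99024439, minus strand: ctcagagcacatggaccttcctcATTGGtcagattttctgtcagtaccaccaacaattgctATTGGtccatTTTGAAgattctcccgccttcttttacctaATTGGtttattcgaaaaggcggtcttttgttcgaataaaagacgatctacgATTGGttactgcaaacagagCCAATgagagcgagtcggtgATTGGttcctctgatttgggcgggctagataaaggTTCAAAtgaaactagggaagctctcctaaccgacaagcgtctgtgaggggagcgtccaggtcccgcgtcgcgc
In Mcm6 an E2F match began 110 bases before the start and overlapped a second, on the opposite strand, that began 106 bases before it, and one more began at 47 bases. Cdk1 carried an E2F match at 131 bases and CHR letters at 71 and 15 bases. Mki67 and Top2a held CHR letters, each with several CCAAT matches, and no E2F form. A match is a description of letters and not a measured site. In AdNAMPT replicate 4 the level over the mean of the other AdNAMPT livers had a median of 2.13 for the 12 genes with CHR letters and 2.51 for the 8 with an E2F form, beside 1.96 for all 40. The median log2 fold change between groups was -0.15 for the 11 tested genes with CHR letters and -0.37 for the 7 tested genes with an E2F form, beside -0.19 for all 31 tested. Without AdNAMPT replicate 4 these medians were -0.60, -0.69 and -0.54. Most genes with an E2F form are licensing genes, so motif and role cannot be told apart here.

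Of the D-type cyclins, Ccnd1, the cyclin that carries growth signals to the cell cycle in hepatocytes, had 9.91, 8.26, 10.7 and 10.2 CPM in the AdGFP livers, given here and below from replicate 1 to replicate 4, and 4.5, 6.90, 11.6 and 18.5 CPM in the AdNAMPT livers. The AdNAMPT livers lay on both sides of the AdGFP range, which they spanned. Its log2 fold change was -0.10 ± 0.28 (SE, n = 4 per group; limma adjusted p = 0.948). Ccnd2 differed by -0.05, and AdNAMPT replicate 4 was not the highest liver for it. An exon of LTO1 on the opposite strand covers 21.3% of the exonic bases of Ccnd1, and strand use in counting is not stated.

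Among the G1/S genes, Ccne2 (ENSMUSG00000028212, chr4:11191351-11204779, GRCm38), a cyclin E that activates Cdk2 at the start of S phase, was at 5.19, 5.22, 6.51 and 5.41 CPM in AdGFP and at 2.58, 3.14, 4.88 and 5.13 CPM in AdNAMPT. Every AdNAMPT liver was below every AdGFP liver, also after TMM scaling, although the nearest livers, at 5.13 and 5.19 CPM, almost touched. It was the 1 gene of the 31 with such a separation, against 2.70% of all genes with AdNAMPT lower and 2.09% with AdNAMPT higher. The log2 fold change was -0.58 ± 0.19 (SE, n = 4 per group), with an unadjusted limma p of 0.0103 and an adjusted p of 0.408. Ints8 on the opposite strand overlaps 17.4% of its exonic bases. E2f1, an activating E2F factor, was at 5.60, 4.59, 5.79 and 4.60 CPM in AdGFP and at 5.25, 4.58, 4.33 and 5.42 CPM in AdNAMPT. Its groups overlapped, with a log2 fold change of -0.22 ± 0.14 (SE, n = 4 per group; limma adjusted p = 0.647). Ccne1 and the repressor E2f8 had log2 fold changes of -0.19 and 0.20.

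The origin licensing genes had the lowest median fold change of the 6 roles. All 7 tested members, Cdt1 and Mcm2 to Mcm7, had a log2 fold change below 0, between -0.73 and -0.25 with a median of -0.38, and 0 of the 7 passed the adjusted threshold. Mcm6 (ENSMUSG00000026355, chr1:128331590-128359664), a helicase subunit, was at 10.5, 7.84, 9.98 and 13.2 CPM in AdGFP and at 4.08, 5.05, 5.94 and 14.3 CPM in AdNAMPT. AdNAMPT replicates 1, 2 and 3 were thus below every AdGFP liver, and replicate 4 was above all of them. This gave a log2 fold change of -0.73 ± 0.29 (SE, n = 4 per group), with an unadjusted limma p of 0.0274 and an adjusted p of 0.478. Mcm4 (ENSMUSG00000022673, chr16:15623897-15637400), another subunit, was at 6.49, 7.06, 5.85 and 8.11 CPM in AdGFP and at 3.08, 3.48, 4.93 and 7.07 CPM in AdNAMPT. AdNAMPT replicates 1 to 3 were again below the AdGFP range and replicate 4 was within it. The group difference was a log2 fold change of -0.66 ± 0.21 (SE, n = 4 per group), with an unadjusted limma p of 0.0109 and an adjusted p of 0.412. Mcm2, which carries CHR letters and no E2F form in the window shown above, was at 5.60, 5.86, 4.90 and 7.31 CPM in AdGFP and at 3.08, 3.76, 5.78 and 6.25 CPM in AdNAMPT. Only AdNAMPT replicates 1 and 2 were below the AdGFP range, and the log2 fold change was -0.38 ± 0.21 (SE, n = 4 per group; limma adjusted p = 0.611). The loading factor Cdc6, below the filter, had a log2 fold change of 0.50 in the wider fit.

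Genes of DNA synthesis and nucleotide supply were more even. All 6 had a log2 fold change below 0, but 4 of them lay between -0.12 and -0.01. Pcna, the polymerase clamp, was at 15.8, 15.0, 16.2 and 16.4 CPM in AdGFP and at 12.5, 16.5, 18.9 and 17.6 CPM in AdNAMPT. Its log2 fold change was -0.01, with a 95% confidence interval of -0.22 to 0.21 (limma adjusted p = 0.988). Rrm1 was at 14.6, 13.6, 14.2 and 14.8 CPM in AdGFP and at 11.2, 13.9, 12.2 and 18.9 CPM in AdNAMPT, with a log2 fold change of -0.12 ± 0.13 (SE, n = 4 per group; limma adjusted p = 0.823). Rrm2, the small reductase subunit that is made in S phase, was at 2.19, 2.4, 2.57 and 3.0 CPM in AdGFP and at 1.42, 1.71, 2.57 and 5.66 CPM in AdNAMPT. The 2 subunits of 1 enzyme thus differed in spread: the highest AdNAMPT liver was 1.52 times the mean of the others for Rrm1 and 2.98 times for Rrm2. The log2 fold change of Rrm2 was -0.07 ± 0.33 (SE, n = 4 per group; limma adjusted p = 0.970). Tk1 was at 19.0, 16.8, 18.5 and 25.3 CPM in AdGFP and at 17.0, 21.0, 14.8 and 16.8 CPM in AdNAMPT. AdNAMPT replicate 4, the highest liver for 3 of the 6 synthesis genes, was near the mean of its group for Tk1, and the log2 fold change was -0.28 ± 0.15 (SE, n = 4 per group; limma adjusted p = 0.582). Uhrf1, which keeps DNA methylation through replication, varied most: it had 1 read (0.0833 CPM) in AdNAMPT replicate 1 and 2.89 CPM in AdNAMPT replicate 4.

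Among mitotic entry genes, Cdk1, the kinase that starts mitosis, was at 2.12, 1.41, 2.45 and 3.43 CPM in AdGFP and at 3.66, 3.82, 1.96 and 4.77 CPM in AdNAMPT. In CPM, AdNAMPT replicates 1 and 2 were above every AdGFP liver here, whereas for Mcm2 to Mcm6 they were below every AdGFP liver. After TMM scaling, AdNAMPT replicate 1 was no longer above AdGFP replicate 4 for Cdk1. Their log2 levels over the AdGFP mean were then 0.49 and 0.50. The log2 fold change was 0.37 ± 0.31 (SE, n = 4 per group; limma adjusted p = 0.751). Ccnb1, the cyclin that activates Cdk1, was at 0.342, 0.424, 0.418 and 1.10 CPM in AdGFP and at 0.333, 0.341, 0.503 and 0.943 CPM in AdNAMPT, on 4 to 16 reads a library. In both groups replicate 4 was the highest liver. Its log2 fold change in the wider fit was -0.14 ± 0.45 (SE, n = 4 per group; limma adjusted p = 0.962). The partner cyclin Ccnb2, given because it had the largest ratio, was 5.00 times higher in AdNAMPT replicate 4 than in the mean of the other AdNAMPT livers. Over the 8 genes that ratio had a median of 2.06.

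**Figure D2:**
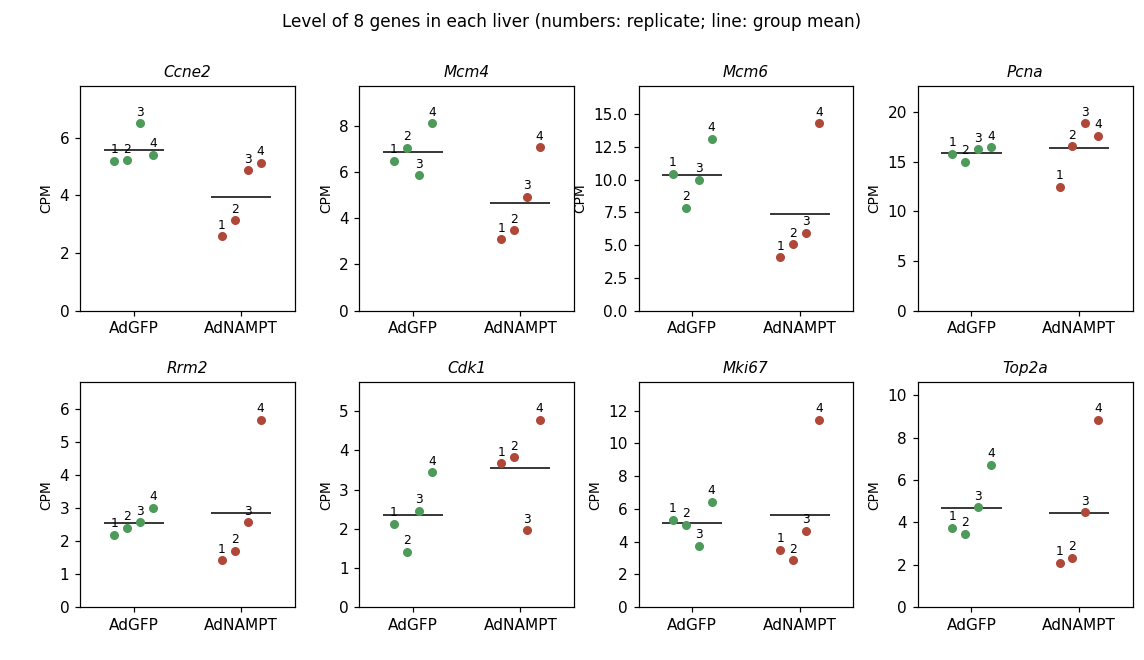
Level in CPM (vertical axis, from 0) of 8 genes in each liver, with the replicate number at each point and the group mean as a line. Ccne2, Mcm4 and Mcm6 have AdNAMPT replicates 1 to 3 below the AdGFP livers, Pcna is even, Cdk1 has AdNAMPT replicates 1, 2 and 4 above the AdGFP livers, and Rrm2, Mki67 and Top2a have AdNAMPT replicate 4 as the highest liver, with AdGFP replicate 4 next at 3.0, 6.43 and 6.72 CPM.

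Genes of chromosomes, spindle and division carried the widest contrast between livers. Mki67 (ENSMUSG00000031004, chr7:135689788-135716379), the proliferation marker Ki-67 that coats mitotic chromosomes, was at 5.33, 5.01, 3.76 and 6.43 CPM in AdGFP and at 3.5, 2.87, 4.68 and 11.4 CPM in AdNAMPT. Its lowest and its highest liver were both AdNAMPT. The log2 fold change was -0.15 ± 0.36 (SE, n = 4 per group; limma adjusted p = 0.932). Top2a, the topoisomerase that untangles sister chromatids, was at 3.76, 3.46, 4.72 and 6.72 CPM in AdGFP and at 2.08, 2.32, 4.48 and 8.84 CPM in AdNAMPT. As for Mcm2, AdNAMPT replicates 1 and 2 were the lowest livers. Its log2 fold change was -0.33 ± 0.37 (SE, n = 4 per group; limma adjusted p = 0.821). Birc5, survivin of the chromosomal passenger complex, was at 1.44, 1.13, 1.79 and 1.83 CPM in AdGFP and at 1.5, 1.84, 1.36 and 2.95 CPM in AdNAMPT. Only replicate 4 left the AdGFP range by more than 0.1 CPM, and the log2 fold change was 0.13 ± 0.27 (SE, n = 4 per group; limma adjusted p = 0.922). Stmn1, which destabilises microtubules, was at 0.478, 0.212, 0.358 and 0.365 CPM in AdGFP and at 0.416, 0.273, 0.553 and 0.825 CPM in AdNAMPT, on 3 to 14 reads a library. With so few reads its log2 fold change of 0.28 ± 0.41 (SE, n = 4 per group; limma adjusted p = 0.896) could not be told from 0. The kinetochore motor Cenpe, below the filter, was named because its groups did not overlap. It had 0.410 to 0.565 CPM in AdGFP and 0.615 to 2.06 CPM in AdNAMPT. These levels rested on 6 to 9 reads a library in AdGFP and 8 to 35 in AdNAMPT, so the read counts did overlap. The share of such separations over the wider fit was not counted. Its log2 fold change of 0.65 had an adjusted limma p of 0.709.

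Summed over each role, the same livers stood out. The 8 licensing genes together were at 42.7, 40.5, 38.9 and 56.4 CPM in AdGFP and at 24.2, 26.7, 34.7 and 57.1 CPM in AdNAMPT. The 12 chromosome and spindle genes were at 19.6, 19.4, 20.3 and 32.0 CPM in AdGFP and at 16.5, 14.3, 22 and 48.0 CPM in AdNAMPT. The 8 mitotic entry genes were at 8.95, 7.48, 10.9 and 14.0 CPM in AdGFP and at 8.75, 9.22, 9.10 and 21.0 CPM in AdNAMPT. AdNAMPT replicate 4 exceeded the mean of the other AdNAMPT livers 2.0-fold in licensing, 2.33-fold in mitotic entry, 2.73-fold in chromosome and spindle genes and 1.26-fold in DNA synthesis. AdNAMPT replicates 1 to 3 were low in licensing, all below the AdGFP range, but within it for mitotic entry. The D-type cyclin sum differed by 0.37 CPM between the group means, and by -1.12 CPM after TMM scaling. Leaving out 1 liver also turned it, to -0.32 CPM without AdGFP replicate 3 and -1.78 CPM without AdNAMPT replicate 4, and it was 2.37 CPM without AdNAMPT replicate 1. The DNA synthesis difference turned from -2.11 CPM to 1.07 CPM without AdGFP replicate 4 and 1.99 CPM without AdNAMPT replicate 1. Without AdNAMPT replicate 4, mitotic entry turned from 1.70 to -1.29 CPM, and chromosomes and spindle from 2.38 to -5.23 CPM. The licensing and G1/S sums stayed lower in AdNAMPT whichever liver was left out.

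**Figure D3:**
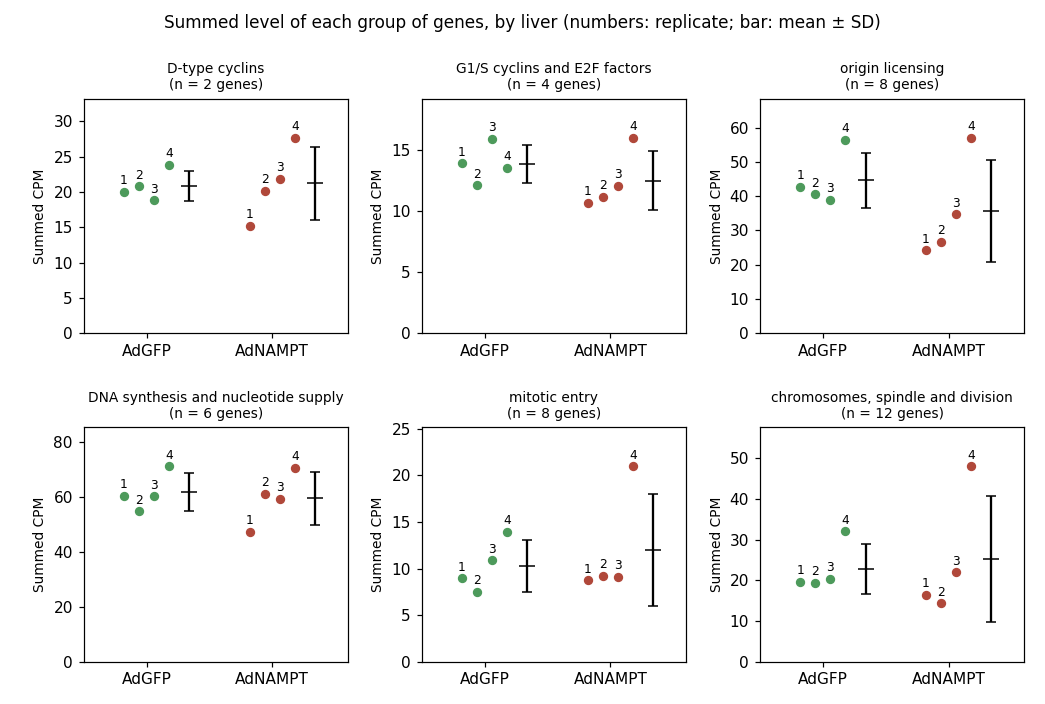
Summed CPM (vertical axis, from 0) of the genes of each role in each liver, with the replicate number at each point and the mean ± SD (n = 4) beside each group. AdNAMPT replicate 4 is the highest AdNAMPT liver in all 6 panels, and in licensing the other 3 AdNAMPT livers lie between 24.2 and 34.7 CPM, below the AdGFP minimum of 38.9 CPM.

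Without AdNAMPT replicate 4, the liver with Xist, the comparison of 4 AdGFP with 3 AdNAMPT livers looked different. That liver was the highest of AdNAMPT for 27 of the 31 genes, so leaving it out had to lower their AdNAMPT means. When AdGFP replicate 4, the highest of AdGFP for 26 of the 31, was left out instead, 2 genes were lower at an unadjusted limma p under 0.05. Over all genes 972 of 12486 were under that p in either direction. Without AdNAMPT replicate 4, 28 of the 31 genes had a log2 fold change below 0, and 16 were lower at an unadjusted limma p under 0.05, against 5.77% of all genes. Mcm6 alone passed the adjusted threshold, with a log2 fold change of -1.13 ± 0.19 (SE; limma adjusted p = 0.0439), against 0.265% of all genes. By role, 5 of 7 licensing, 3 of 6 synthesis, 2 of 4 mitotic entry and 4 of 8 chromosome and spindle genes were among the 16, with 1 D-type cyclin and 1 G1/S gene. The median log2 fold change was -0.69 for licensing, -0.62 for chromosomes and spindle, and -0.21 for synthesis. Mki67 went from -0.15 to -0.66, Top2a from -0.33 to -0.85 and Ccnd1 from -0.10 to -0.51, while Pcna went from -0.01 to -0.06 and Cdk1 from 0.37 to 0.33. With AdNAMPT replicate 1 left out as well, 0 of these genes passed the adjusted threshold, and 5 were lower at an unadjusted limma p under 0.05 (Mcm6, Mcm4, Ccne2, Mcm3 and Kif20a). Over all genes 992 of 12349 were under that p in either direction. Mcm6 was then at a log2 fold change of -1.02, close to its value without AdNAMPT replicate 4 alone, with 1 library fewer (limma adjusted p = 0.168). Among these fits Mcm6 thus passed only with AdNAMPT replicate 4 alone left out. Leaving out AdNAMPT replicate 2 or 3 together with replicate 4 was not tested, so the lost call cannot be tied to replicate 1.

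**Figure D4:**
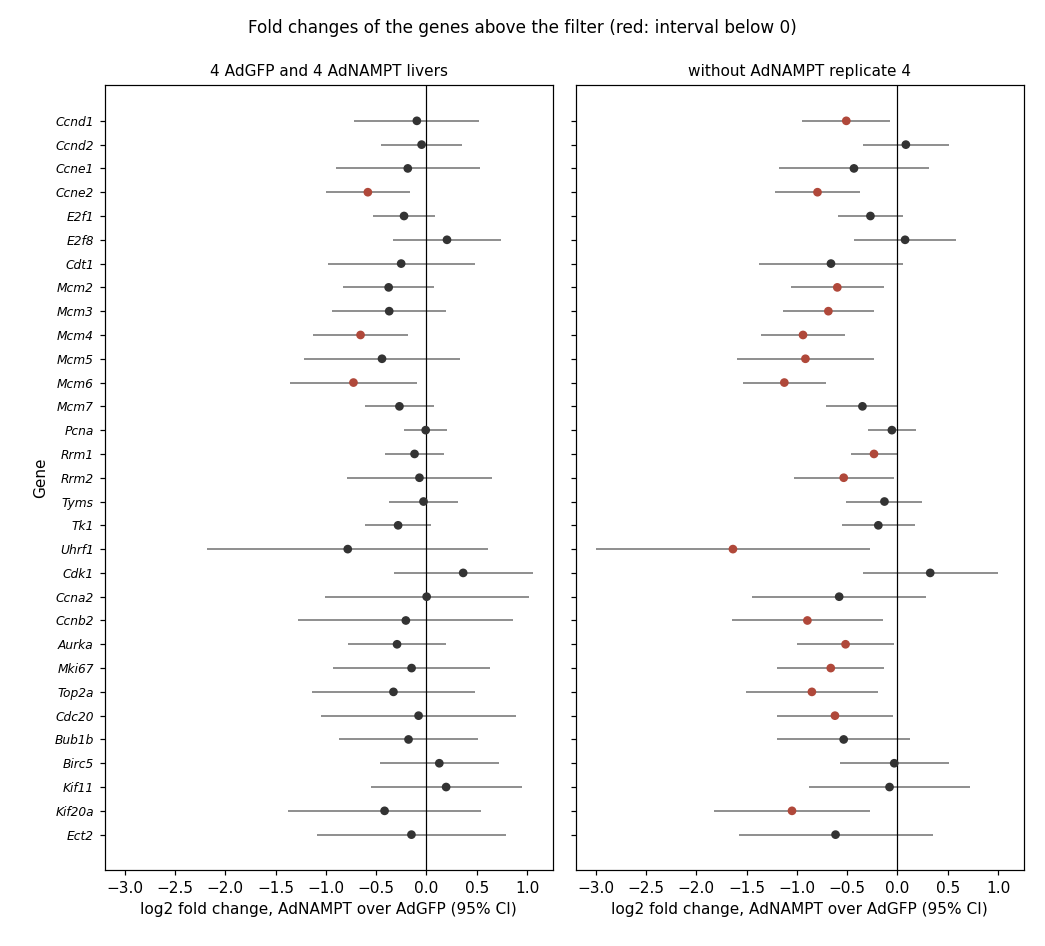
Log2 fold change (AdNAMPT over AdGFP) with its 95% confidence interval from limma for the 31 genes above the filter, with all 8 livers (left) and without AdNAMPT replicate 4 (right). Points in red have an interval below 0, which holds for 3 genes on the left and 16 on the right. The liver left out was the highest AdNAMPT liver for 27 of the 31 genes.

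Other genes of the cycle were read from 5 lists with 105 genes, of which 81 were above the filter. None passed the adjusted threshold in limma (0 of 81, against 0.277% of all genes), and 3 of 81 had an unadjusted p under 0.05, against 9.69% of all genes. Of the 81, 33 were higher and 48 lower. The CDK inhibitors, which hold cells out of the cycle, had 3 higher and 2 lower of 5 tested and a median log2 fold change of 0.01. The 16 tested pocket proteins, other E2F and MuvB genes had 4 higher and 12 lower, with a median of -0.10. The 30 tested genes of the origin and fork had 11 higher and 19 lower, with a median of -0.08, and the 20 tested spindle, kinetochore and cytokinesis genes 10 higher and 10 lower, with a median of -0.01. The 10 tested kinases, other cyclins and phosphatases had 5 in each direction. AdNAMPT replicate 4 was the highest liver for 20 of the 32 spindle genes, 12 of the 34 origin and fork genes and 2 of the 8 CDK inhibitors. It was also highest for 2 of the 13 kinases, other cyclins and phosphatases and 1 of the 18 pocket protein, E2F and MuvB genes. Over all genes above the filter that share was 12.5%. Without that liver, 13 of the 81 had an unadjusted limma p under 0.05, against 11.3% of all genes. These were 11 of the 30 origin and fork genes, 1 of the 20 spindle genes and 1 of the 16 pocket protein, E2F and MuvB genes.

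The 3 genes of these lists with an unadjusted p under 0.05, a smaller share than over all genes, were all lower in AdNAMPT. Rfc4, a subunit of the clamp loader for Pcna, was at 3.14, 3.18, 4.18 and 3.29 CPM in AdGFP and at 3.16, 2.53, 3.02 and 2.83 CPM in AdNAMPT, a log2 fold change of -0.40 ± 0.16 (SE, n = 4 per group; limma adjusted p = 0.478). Tfdp2, a partner of the E2F factors, had a log2 fold change of -0.21 ± 0.09 (SE, n = 4 per group; limma adjusted p = 0.487). Ccnd3, the remaining D-type cyclin, was at 17.5, 19.1, 18.6 and 19.4 CPM in AdGFP and at 23.9, 14.9, 17.2 and 16.8 CPM in AdNAMPT. Its highest liver was AdNAMPT replicate 1, the library of lowest weight, and its weighted log2 fold change was -0.24 ± 0.10 (SE, n = 4 per group; limma adjusted p = 0.503).

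Markers of other cell types also differed between these livers. The 8 Kupffer cell and macrophage markers summed to 262 to 323 CPM in AdGFP and to 190, 212, 289 and 314 CPM in AdNAMPT replicates 1 to 4. The low pair was thus also the pair with the lowest licensing sums. Among the AdGFP livers the order went the other way: replicate 4 had the lowest sum of these markers, 262 CPM, and the highest licensing sum, 56.4 CPM. All 8 markers had a log2 fold change below 0, 3 of them at an unadjusted limma p under 0.05, against 5.04% of all genes lower at that p, and 0 after adjustment. Without AdNAMPT replicate 4, 6 of the 8 had an unadjusted limma p under 0.05, against 11.3% of all genes, with a median log2 fold change of -0.56 in place of -0.38. The 11 erythroid markers found summed to 309 to 583 CPM in AdGFP and 405 to 660 CPM in AdNAMPT, highest in AdNAMPT replicate 4 and lowest in AdGFP replicate 4, the liver with the highest cell cycle levels of its group. The 10 lymphocyte markers summed to 1.68 to 6.01 CPM, with their maximum in AdNAMPT replicate 4, and the 10 neutrophil markers to 2.94 to 7.50 CPM, with Ms4a3 at 0 reads throughout. The stellate cell list summed to 326 to 382 CPM in AdGFP and 360 to 428 CPM in AdNAMPT, with its maximum in AdNAMPT replicate 4 and 3 of its 8 genes higher at an unadjusted limma p under 0.05, against 4.65% of all genes. The 8 hepatocyte markers had 2 genes higher and 6 lower, 0 after adjustment. Endothelial (283 to 359 CPM) and cholangiocyte (26.7 to 44.4 CPM) sums overlapped between groups. The part of these cells in the levels of the cell cycle genes was not tested.

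**Figure D5:**
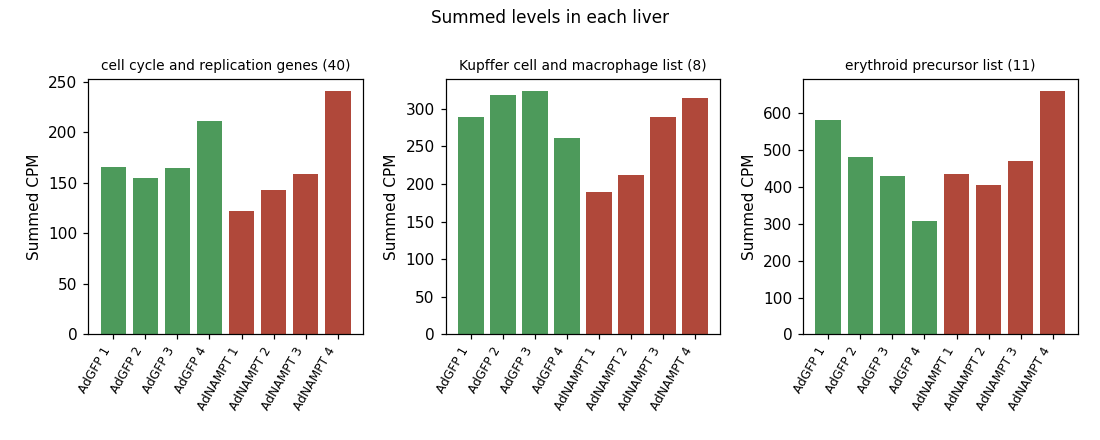
Summed CPM in each liver (vertical axes, from 0) of the 40 cell cycle and replication genes, the 8 Kupffer cell and macrophage markers and the 11 erythroid markers, green for AdGFP and red for AdNAMPT. The first panel runs from 122.5 CPM in AdNAMPT replicate 1 to 240.4 CPM in AdNAMPT replicate 4, the second is lowest in AdNAMPT replicates 1 and 2, and the third is highest in AdNAMPT replicate 4.

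Some levels are less certain because of shared sequence. An exon of another feature overlaps 11 of the 40 genes, most of all Kif20a, where Cdc23 on the opposite strand covers 33.2% of the exonic bases. Pseudogene copies bear the names of Pcna, Ccnb1 and Ccnb2, so uniquely aligned reads may understate these 3 genes.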

How the data were processed

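The authors aligned single reads to the Ensembl build of GRCm38 with STAR and counted unique, unambiguous reads per gene with featureCounts 1.4.5. The deposited counts are whole reads. The deposited CPM are counts over the library total, and the deposited RPKM are CPM over exonic length. Whether strand was used is not given in the sources used here, and the labels name rRNA depletion where the methods name poly-A selection. Following those methods, 355 rRNA features and genes not above 1 CPM in at least 3 libraries were left out (2 libraries in fits without a liver). Counts were scaled by TMM and fitted with limma 3.58.1 (voomWithQualityWeights, group as the only term, R 4.3.3). Adjusted p are Benjamini-Hochberg over all genes, and SE and intervals are limma's. edgeR 4.0.16 and DESeq2 1.42.0 were alternatives. The routines were tested on simulated counts. Replicates of a group differed beyond sampling noise (chi-square per degree of freedom 12.5 to 95.0), so none looked like a repeated deposit of another. The titles number the mice, and each library was counted as 1 mouse on that label. The floor of 3 counts covers counting error only.

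The members, roles, lists and naming rule were chosen with earlier results of these data known. Values in every liver are given for 13 representatives, members with an unadjusted p under 0.05 and the 3 most abundant per length. List genes are named at an unadjusted p under 0.05. The fit without both AdNAMPT replicates 1 and 4 was chosen after seeing the data.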

Additional observations from a re-analysis of the deposited data

Results flagged for a closer look

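Among 92 groups of 4 livers (46 values in 2 groups), 12 had a liver far from the other 3 by Dixon's criterion, where chance gives 1 in 20, or 4.6. AdNAMPT replicate 4 was that liver in 6 cases, AdGFP replicate 4 in 4 and AdGFP replicate 3 in 2. In AdNAMPT replicate 4 the level was 4.54 CPM for Ccnb2 (others 0.683 to 1.21), 1.24 CPM for the mitotic kinase Plk1 (0.252 to 0.341), 6.07 CPM for the anaphase activator Cdc20 (1.08 to 1.37), 1.36 CPM for the passenger kinase Aurkb (0.410 to 0.553), 2.06 CPM for the kinetochore motor Cenpe (0.615 to 0.666) and 21.0 CPM for the summed mitotic entry genes (8.75 to 9.22). In AdGFP replicate 4 it was 1.10 CPM for Ccnb1 (0.342 to 0.424), 3.0 CPM for the spindle motor Kif20a (1.79 to 1.85), 4.24 CPM for the cytokinesis factor Ect2 (1.44 to 1.85) and 32.0 CPM for the summed chromosome and spindle genes (19.4 to 20.3). In AdGFP replicate 3 it was 6.51 CPM for Ccne2 (5.19 to 5.41) and 0.896 CPM for the checkpoint kinase Bub1b (1.32 to 1.37). The genes share livers, so these flags are not independent, and their cause was not tested.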

How the results depend on the processing

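The count of changed members stayed at 0 with edgeR, DESeq2, voom without weights, DESeq2 size factors, library size alone, no filter and the wider fit, and ranged from 0 to 1 when each liver was left out, the 1 being without AdNAMPT replicate 4, also in the wider fit. Over all genes, 34 were changed, 75 with DESeq2 and 28 to 38 without a liver. With library size alone the median of all genes moved to 0.09 and that of the members to -0.11. Whether replicate numbers pair the mice is not known: correlations of same-numbered deviations over all genes were 0.23, -0.05, 0.21 and 0.01. Within each group replicate 4 was the highest liver for most members, 26 of 31 in AdGFP and 27 of 31 in AdNAMPT. A limma fit with replicate number as a block gave 0 changed members and 41 changed genes. In it 5 members had an unadjusted p under 0.05, against 1181 of 12270 genes. The members' median was then -0.04, with 20 of 31 below 0. Of 16 named members, 8 turned direction under an alternative. Without each liver in turn, log2 fold changes spanned -0.51 to 0.20 for Ccnd1, -0.067 to 0.058 for Pcna, -0.53 to 0.19 for Rrm2, -0.49 to 0.24 for Ccnb1, -0.66 to 0.17 for Mki67, -0.85 to 0.048 for Top2a, -0.032 to 0.24 for Birc5 and -0.078 to 0.61 for Stmn1. With edgeR, Ccnd1 was at 0.0084, Rrm2 at 0.092 and Mki67 at 0.055; with DESeq2, Rrm2 at 0.079 and Mki67 at 0.042; with library size alone, Pcna at 0.075 and Rrm2 at 0.0039; with the replicate block, Ccnd1 at 0.072, Rrm2 at 0.12 and Mki67 at 0.13. Without both AdNAMPT replicates 1 and 4, Pcna was at 0.053 and Birc5 at -0.13. The cause of these changes was not tested. With 0 to 35 reads a library for the 9 members below the filter, counting error limits their fold changes.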
